A study of Caenorhabditis elegans with 40 samples.

Results

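The methionine cycle regenerates methionine from homocysteine and turns it into S-adenosylmethionine (SAM), the methyl donor for lipids, nucleic acids and proteins. Expression was examined here for 9 genes of this cycle and its branches in C. elegans. They are the methionine synthase gene metr-1 and the methylenetetrahydrofolate reductase gene mthf-1, the SAM synthetase genes sams-1, sams-3 and sams-4, the phosphoethanolamine methyltransferase genes pmt-1 and pmt-2, the S-adenosylhomocysteine hydrolase gene ahcy-1 and the cystathionine beta-synthase gene cbs-1. They were taken by symbol from the 9532 genes of the RNA count table, and all 9 were present and passed the filter on low counts. The group was listed by function, and sams-3 was also chosen by its RNA counts, which differed between mutants. The mutant values of sams-3 are therefore a description, with no test.

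The animals were heterozygous for a null allele of 1 ribosomal protein (RP) gene, which removes 1 of its functional copies. The mutants rpl-5(0)/+ and rpl-33(0)/+ carried the balancer mIn1, rps-10(0)/+ carried tmC20 and rps-23(0)/+ carried tmC5. A balancer is a rearranged chromosome that keeps a null allele from being lost, and mutants and controls alike carried one. All mutants were collected at day 4. Their controls were wild-type animals over the same balancer, collected at day 4 as a time match or at day 3 as a stage match, because the mutants develop late. By the labels or the study's methods these day 3 controls, like the mutants, were L4 larvae, with no stage labelled for replicate 1 of the rpl mutants. The labels give pregravid adults for the day 4 controls, except L4 for replicate 2 of the tmC20 and tmC5 RNA controls. All strains grew untreated at 16°C on OP-50 bacteria, and each sample was a lysate of pooled whole animals that was split between RNA-seq and ribosome profiling (Ribo-seq). In such bulk samples fewer cells of a type and less RNA per cell cannot be told apart.

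RNA-seq gave 17 distinct libraries of 1017787 to 2384186 counts, 6 of mutants and 11 of controls. The columns headed rpl-5(0)/+ and rpl-33(0)/+ held identical counts and were used once, as 2 libraries here called the rpl-labelled pair. Their genotype, and whether both libraries share it, is not known from the data. In that pair rpl-5 was at 3662 to 5146 counts per 1000000 after TMM scaling of library sizes (CPM), against 2141 to 3533 CPM in mIn1 controls, and rpl-33 was at 640.0 to 931 CPM, against 542 to 826 CPM. RNA of neither gene was therefore lower in the pair than in these controls. Rps-10 was at 1069 to 1136 CPM in rps-10(0)/+, against 1394 to 1795 CPM in tmC20 controls. Rps-23 was at 715 to 808 CPM in rps-23(0)/+, against 838 to 1205 CPM in tmC5 controls. Both lay below every control, as 8.83% and 8.69% of all genes did. Rps-10 (log2 fold change −0.52) and rps-23 (−0.41) did not pass the edgeR test in their mutants (adjusted p = 1.00 and 0.617). The columns of tmC20 replicate 2 headed day 3 and day 4 were also identical, so that library was used once with no age. Yolk protein genes, which mark adults, summed to 4002 to 5575 CPM in the rpl-labelled pair. They summed to 105200.0 to 116602 CPM in day 4 and 1722 to 14332 CPM in day 3 mIn1 controls. In rps-10(0)/+ the yolk sum was 17803 to 20399 CPM. The tmC20 controls were at 17332 CPM (day 3), 22563 CPM (no age) and 88801 CPM (day 4). In rps-23(0)/+ it was 16210 to 20843 CPM, between tmC5 controls at 1967 and 3485 CPM and those at 75487 and 90962 CPM. In tmC5 controls the first column headed day 4 (3485 CPM) and the first headed day 3 (75487 CPM) had the yolk level of the other age. They were kept under their headings. The differences in rps-23(0)/+ are given with and without them, and those by age also without all tmC5 libraries.

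As background, METR-1 uses vitamin B12 and a methyl group that MTHF-1 puts on folate to methylate homocysteine. SAM synthetases join methionine to ATP, and SAM that has given up its methyl group becomes S-adenosylhomocysteine, which AHCY-1 cleaves. PMT-1 and PMT-2 spend SAM in successive methylations that make phosphocholine, the precursor of phosphatidylcholine in worms, and CBS-1 draws homocysteine off towards cysteine.

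The SAM synthetase genes sams-3 and sams-4 are close copies, and their sequences bear on how far their counts can be separated. Sams-1 is less alike, with 1.9% of its 26-base coding windows found in sams-3 and 2.9% in sams-4, and no 75-base window found in either. In the WBcel235 reference the neighbouring genes sams-3 (chromosome IV:5848657-5850843, plus strand) and sams-4 (IV:5844061-5846369, minus strand) have coding sequences of 1215 bases each that are 91.9% identical. They differ at 99 bases, share an unbroken run of 689 bases, and hold 53.9% of their 75-base windows in common. How the authors' counting placed reads that fit both genes is not given in the sources used here, so the split between sams-3 and sams-4 is uncertain. The 60 coding bases where the pair differs most are the following, read 5′ to 3′ with the 35 differing bases in capitals.
sams-3 (IV:5850515-5850574, plus strand): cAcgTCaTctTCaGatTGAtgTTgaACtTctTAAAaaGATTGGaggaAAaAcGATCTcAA
sams-4 (IV:5844351-5844410, minus strand): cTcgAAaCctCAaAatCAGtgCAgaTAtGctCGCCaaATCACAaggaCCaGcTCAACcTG

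A site with known regulation is identical in both. In C. elegans the methyltransferase METT-10 places N6-methyladenosine at a 3′ splice site of sams-3, sams-4 and sams-5, which blocks productive splicing when SAM is plentiful. The last 20 intron bases and first 10 exon bases at that site are the same in sams-3 (IV:5849298-5849327, plus strand), sams-4 (IV:5845595-5845624, minus strand) and sams-5 (IV:6278690-6278719, minus strand), with the TACAGA around the junction in capitals. Counts per gene do not resolve the spliced forms, so the use of the site was not measured.
sams-3, sams-4 and sams-5: aacggttactttgatTACAGAaacggtgac

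Levels of the genes differed widely. In control animals, as CPM per kilobase of the longest annotated transcript, ahcy-1 was highest at 2202 ± 924 (SD, n = 11), followed by pmt-2 at 537 ± 149.8, pmt-1 at 291 ± 86.0, metr-1 at 281 ± 96.9 and sams-1 at 197 ± 108. The levels of mthf-1 (69.4 ± 25.7), sams-3 (50.3 ± 8.28), sams-4 (24.5 ± 7.69) and cbs-1 (7.38 ± 3.33) were lower on the same scale. Neighbours from pmt-1 to sams-1 lay within 1 SD of each other. Of the 9 genes, sams-3 had the smallest SD relative to its mean among controls. Across all 17 libraries the ratio of highest to lowest CPM was 15.4 for cbs-1, 8.17 for metr-1, 8.04 for sams-3, 6.67 for ahcy-1, 5.78 for pmt-2 and 2.31 for pmt-1.

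**Figure D1:**
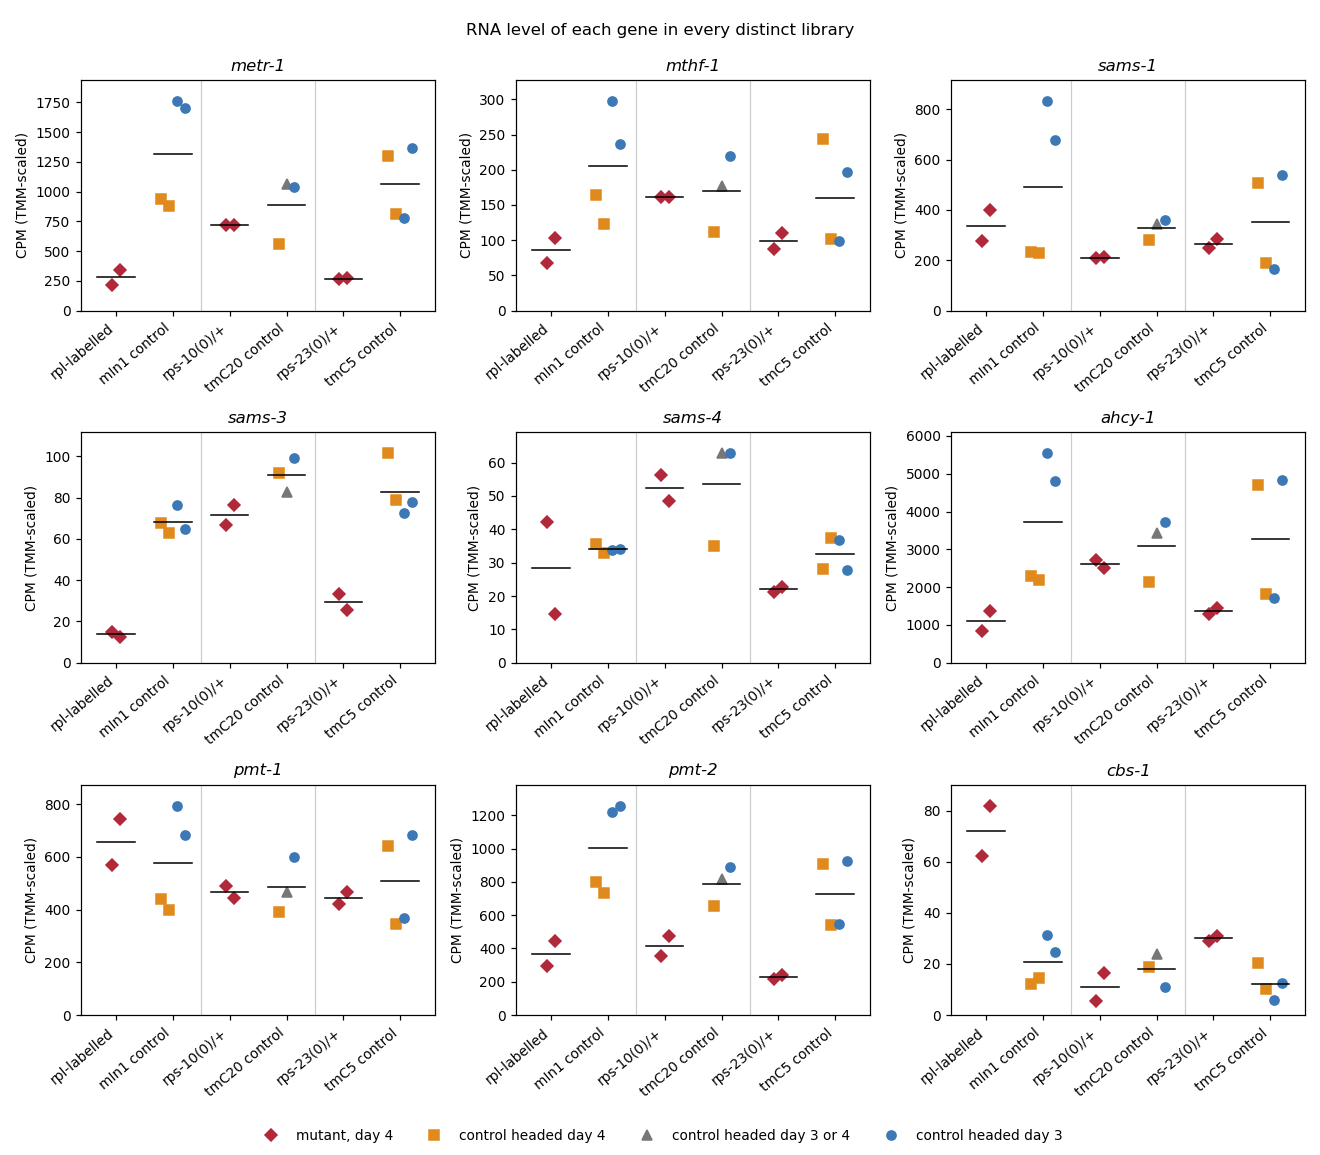
TMM-scaled CPM (linear axis) of each of the 9 genes in each of the 17 distinct RNA libraries, with mutants left of the controls of their balancer. Markers show mutants and controls headed day 4, day 3 or both, and black lines are group means. Metr-1, sams-3 and pmt-2 lie below every control of their balancer in the rpl-labelled pair and in rps-23(0)/+, and cbs-1 lies above.

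RNA of metr-1, the methionine synthase gene, fell in 2 of the 3 mutant groups. The rpl-labelled pair had 216 and 343 CPM of metr-1, against 938 and 880.4 CPM in day 4 and 1760.5 and 1699.6 CPM in day 3 mIn1 controls. All 4 controls were above both mutant libraries, and day 4 controls were below day 3 controls. In rps-23(0)/+ metr-1 was at 263 and 274 CPM, against 1295 and 811 CPM in the tmC5 columns headed day 4 and 774 and 1364 CPM in those headed day 3. The groups again did not overlap. The rps-10(0)/+ libraries had 722 and 719 CPM, inside the tmC20 range of 559.5 CPM at day 4, 1038 CPM at day 3 and 1063 CPM in the library with no age.

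The fold change of metr-1 was 4.73-fold lower in the rpl-labelled pair (log2 −2.24, SE 0.42, adjusted p = 0.0116, edgeR quasi-likelihood test) and −1.98 on the log2 scale in rps-23(0)/+ (SE 0.41, adjusted p = 0.0431). In rps-10(0)/+ it was −0.30 and did not pass. The call in the rpl-labelled pair was lost without its replicate 1 (adjusted p = 0.193) and held without any other single library. It was lost when the pair was fitted with its own controls alone (adjusted p = 0.129) and with a replicate block over the numbered columns (0.131). It held against day 3 controls alone (log2 −2.67, adjusted p = 0.00160) and day 4 controls alone (−1.70, adjusted p = 0.0377). In rps-23(0)/+ the call was lost against day 4 controls alone (−1.97, adjusted p = 0.144), fitted alone (0.118), with the block (0.212) and after a filter for 10 or more counts in each library (0.0763), and held against day 3 controls alone (−2.07, adjusted p = 0.00596). Without either rps-23(0)/+ library the adjusted p was 0.413 or 0.304, without either rps-10(0)/+ library 0.0751 or 0.0753, without either tmC5 column headed day 3 0.0522 or 0.0919, and without the first headed day 4 0.0898. Without both tmC5 columns of the other age's yolk level metr-1 was at −2.11 (adjusted p = 0.101).

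Mthf-1, which supplies the methylated folate, was lower in the rpl-labelled pair at 68.2 and 103 CPM, against 164 and 122.7 CPM at day 4 and 298 and 236 CPM at day 3. The log2 difference was −1.26 (SE 0.45, adjusted p = 0.161), which did not pass although the groups did not overlap. Against day 3 controls alone it was −1.68 and passed (adjusted p = 0.0331). In rps-23(0)/+ mthf-1 was at 88.0 and 110.1 CPM, against 243 and 101 CPM under the day 4 heading and 98.9 and 197 CPM under day 3, and the groups overlapped (−0.69, adjusted p = 0.648). The rps-10(0)/+ libraries had 161 and 162 CPM, inside a tmC20 range of 111 to 219.7 CPM.

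Among the SAM synthetases, sams-3 had the lowest log2 difference from controls in the rpl-labelled pair and in rps-23(0)/+, but not in rps-10(0)/+, where that of sams-1 was lower. The rpl-labelled pair had 15.04 and 12.6 CPM, against 67.8 and 62.8 CPM in day 4 and 76.5 and 64.7 CPM in day 3 mIn1 controls. That is 13.8 ± 1.71 CPM (SD, n = 2) against 67.9 ± 6.05 CPM (SD, n = 4), a log2 difference of −2.29 (SE 0.24). In rps-23(0)/+ sams-3 was at 33.4 and 25.6 CPM, against 101 and 79.1 CPM under the day 4 heading and 72.8 and 77.8 CPM under day 3 (−1.49, SE 0.22). In the rps-10(0)/+ libraries sams-3 was at 66.9 and 76.5 CPM, against 92.0 CPM at day 4, 99.1 CPM at day 3 and 82.5 CPM in the library with no age (−0.35, SE 0.22). Both mutant libraries lay below every control of their balancer in all 3 groups. So did 12.8% of all genes in the rpl-labelled pair, 8.69% in rps-23(0)/+ and 8.83% in rps-10(0)/+, and sams-3 was chosen from these values. With counts of sams-3 and sams-4 summed, which does not depend on how shared reads were divided between them, the log2 differences were −1.27 (SE 0.26) in the rpl-labelled pair, −1.16 (SE 0.25) in rps-23(0)/+ and −0.22 (SE 0.25) in rps-10(0)/+.

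Its neighbour sams-4 gave a different picture. The rpl-labelled pair had 42.1 and 14.7 CPM, 1 library above and 1 below the mIn1 controls at 35.5 and 32.9 CPM (day 4) and 33.94 and 33.99 CPM (day 3). The log2 difference of −0.26 (SE 0.36, adjusted p = 0.700) turned to 0.27 without replicate 2 of the pair and was −1.24 without replicate 1. In rps-23(0)/+ sams-4 was at 21.2 and 22.8 CPM, below all tmC5 controls at 27.9 to 37.5 CPM, and the difference did not pass (−0.57, adjusted p = 0.649). Values in rps-10(0)/+ were 56.2 and 48.4 CPM, within the tmC20 range of 35.1 to 62.8 CPM.

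Sams-1, the SAM synthetase known for supplying phosphatidylcholine synthesis, did not pass in any mutant. The rpl-labelled pair had 275 and 401 CPM, against 232 and 229 CPM at day 4 and 833 and 677 CPM at day 3, so it lay between the control ages. Its log2 difference was −0.54 (SE 0.57, adjusted p = 0.601) against both ages, 0.55 against day 4 alone and −1.20 against day 3 alone. In rps-10(0)/+ it was at 208 and 211 CPM, below tmC20 controls at 279, 362 and 346 CPM (−0.65, adjusted p = 1.00). In rps-23(0)/+ it was at 248 and 284 CPM, within the tmC5 range of 167 to 539 CPM.

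The pair of phosphocholine enzymes diverged, with pmt-2 lower in mutants and pmt-1 near its controls. Pmt-2, which carries out the later methylations, had 294 and 445 CPM in the rpl-labelled pair, against 802 and 735 CPM in day 4 and 1221 and 1258 CPM in day 3 mIn1 controls. It had 218 and 241 CPM in rps-23(0)/+, against 905 and 539.9 CPM under the day 4 heading and 546 and 924 CPM under day 3. In rps-10(0)/+ it had 354 and 473 CPM, against 658 CPM at day 4, 891 CPM at day 3 and 818 CPM in the library with no age. No mutant library reached any of its controls in these 3 groups. Pmt-2 fell 2.72-fold in the rpl-labelled pair (log2 −1.44, SE 0.34, adjusted p = 0.0380) and by 1.67 on the log2 scale in rps-23(0)/+ (SE 0.34, adjusted p = 0.0410). In rps-10(0)/+ its difference of −0.93 did not pass the edgeR test (adjusted p = 1.00).

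These pmt-2 calls were lost under several settings. Against day 4 controls alone the adjusted p was 0.0652 in the rpl-labelled pair (−1.06) and 0.176 in rps-23(0)/+ (−1.65), and with each mutant group fitted alone with its own controls it was 0.209 and 0.121, in the same order. With a replicate block it was 0.220 in the rpl-labelled pair and 0.182 in rps-23(0)/+, where at least 10 counts in every library gave 0.0720. Against day 3 controls alone both calls held (adjusted p = 0.0111 and 0.0145). In the rpl-labelled pair the adjusted p was 0.325 without its replicate 1, 0.0550 without its replicate 2, 0.0578 or 0.0551 without either day 3 mIn1 control, and 0.0578 or 0.0581 without either rps-10(0)/+ library. In rps-23(0)/+ it was 0.413 or 0.256 without either of its libraries, 0.0651 or 0.0650 without either rps-10(0)/+ library, 0.0919 without the second tmC5 column headed day 3 and 0.0887 without the first headed day 4. Without both tmC5 columns of the other age's yolk level it was 0.0980 at a log2 difference of −1.77.

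Pmt-1, which carries out the first methylation, had 569 and 743 CPM in the rpl-labelled pair, against 438 and 399 CPM at day 4 and 794 and 681 CPM at day 3. Its log2 differences were 0.18 (SE 0.34) in the rpl-labelled pair, −0.20 in rps-23(0)/+ and −0.06 in rps-10(0)/+, and mutant and control libraries overlapped in each. The sign in the rpl-labelled pair turned with library totals in place of TMM factors (−0.10).

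Ahcy-1, which removes the product of SAM-dependent methylation, was lower in the rpl-labelled pair and in rps-23(0)/+ without passing the edgeR test as fitted. The rpl-labelled pair had 831 and 1374 CPM, against 2302 and 2185 CPM at day 4 and 5541 and 4817 CPM at day 3 (log2 −1.75, SE 0.53, adjusted p = 0.105). The day 3 controls alone gave a difference of −2.27 that passed (adjusted p = 0.0176), and the day 4 controls alone gave −1.02 (adjusted p = 0.129). It also passed in the pair with DESeq2 (−1.78, adjusted p = 0.0114) and with library totals in place of TMM factors (−2.03, adjusted p = 0.0439). In rps-23(0)/+ it was at 1299.6 and 1461 CPM, below the tmC5 controls at 1707 to 4834 CPM (−1.24, adjusted p = 0.380). Values in rps-10(0)/+ were 2715 and 2520.2 CPM, within the tmC20 range of 2125 to 3733 CPM.

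Cbs-1, the exit towards cysteine, was the gene that stood higher. The rpl-labelled pair had 62.1 and 82.0 CPM, against 12.1 and 14.7 CPM in day 4 and 31.4 and 24.9 CPM in day 3 mIn1 controls. In rps-23(0)/+ it had 28.8 and 31.1 CPM, against 20.3 and 10.4 CPM under the day 4 heading and 6.06 and 12.5 CPM under day 3. The rps-10(0)/+ libraries had 5.33 and 16.3 CPM, against 10.8 to 23.9 CPM. The log2 differences were 1.78 (SE 0.49, adjusted p = 0.0743), 1.30 (adjusted p = 0.343) and −0.74 in the rpl-labelled pair, rps-23(0)/+ and rps-10(0)/+, and none passed the edgeR test as fitted. In the rpl-labelled pair cbs-1 passed with DESeq2 (1.76, adjusted p = 0.0194), with at least 10 counts in every library (adjusted p = 0.0466) and against day 4 controls alone (2.42, adjusted p = 0.0365). In rps-10(0)/+ its difference was −0.14 without replicate 1, −1.74 without replicate 2 and −0.48 without the control library with no age.

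**Figure D2:**
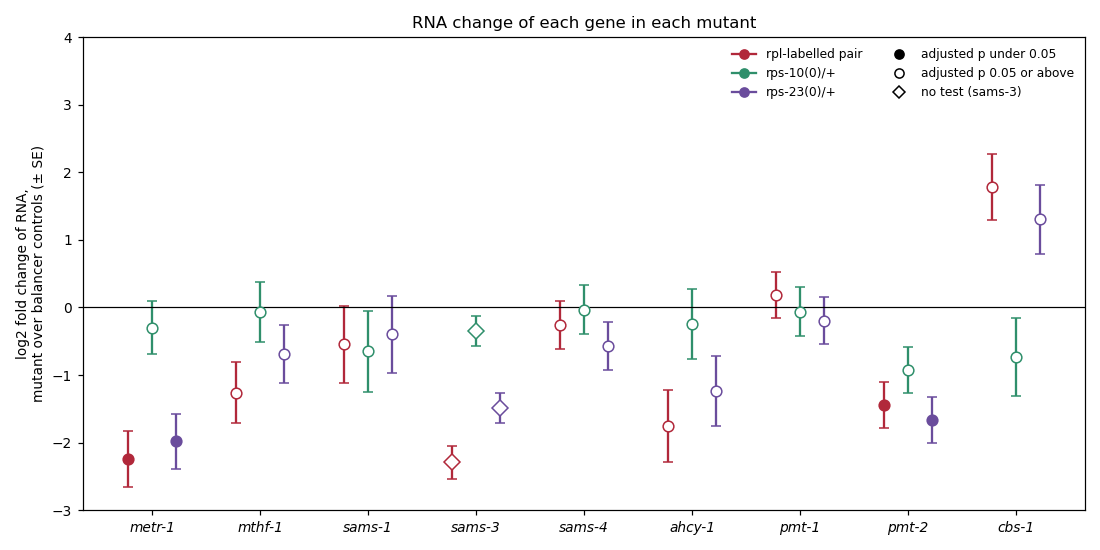
Log2 fold change of each gene, mutant over wild-type controls of the same balancer, with bars of 1 SE from the edgeR fit, for the rpl-labelled pair, rps-10(0)/+ and rps-23(0)/+. Filled circles passed an adjusted p of 0.05 (metr-1 and pmt-2 in the rpl-labelled pair and in rps-23(0)/+), and diamonds mark sams-3, which was not tested.

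Of the 8 genes tested, 2 were called in the rpl-labelled pair, both lower, where 2.54% of all 9276 genes were called and 0.679% were called lower. In rps-23(0)/+ 2 of 8 were called, both lower, against 0.625% of all genes called and 0.248% called lower. In rps-10(0)/+ 0 of 8 were called by edgeR and by DESeq2, against 0.129% of all genes called, and 1 of 8 had an unadjusted p under 0.05. The numbers with an unadjusted p under 0.05 were 5 of 8 in the rpl-labelled pair and 4 of 8 in rps-23(0)/+. Over all 9276 genes they were 1783 in the rpl-labelled pair, 1031 in rps-23(0)/+ and 295 in rps-10(0)/+. The median log2 difference of the 8 genes was −0.90 in the rpl-labelled pair, −0.63 in rps-23(0)/+ and −0.27 in rps-10(0)/+, and that of all genes −0.02, −0.08 and −0.05. With library totals in place of TMM factors the median over all genes was −0.32, −0.25 and −0.06, and the 173 higher and 63 lower calls in the rpl-labelled pair became 89 and 168.

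Both mutant libraries lay below every control for 4 of 8 genes in the rpl-labelled pair (12.8% of all genes did so), 2 of 8 in rps-10(0)/+ (8.83%) and 4 of 8 in rps-23(0)/+ (8.69%). They lay above every control for 1 of 8, 0 of 8 and 1 of 8 genes (17.7%, 11% and 16.1%). Whether the mutant groups differ from each other was not tested. Without the tmC5 columns of the other age's yolk level the log2 differences in rps-23(0)/+ were −1.52 for sams-3, −1.35 for ahcy-1, −0.68 for mthf-1 and sams-4, −0.53 for sams-1, −0.29 for pmt-1 and 1.28 for cbs-1. None of the 8 genes tested then passed in edgeR, the lowest adjusted p being that of pmt-2. Against day 3 controls alone 4 of 8 genes were called in the rpl-labelled pair, all lower (1.5% of all genes called), and against day 4 controls alone 2 of 8, metr-1 lower and cbs-1 higher (10.6%).

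Markers of stage and tissue also differed in the mIn1 comparison, between control ages or between the pair and its controls. Molting epidermis genes, high in larvae, summed to 3543 to 7618 CPM in the rpl-labelled pair, 59.7 to 141 CPM in day 4 and 5445 to 5456 CPM in day 3 mIn1 controls. Intestine genes summed to 4683 to 4858 CPM in the pair, 3335 to 3752 CPM at day 4 and 7229 to 8066 CPM at day 3. Germline genes summed to 548 to 812 CPM in the pair and 1008 to 1809 CPM in mIn1 controls. In rps-23(0)/+ molting (3867 to 4816 CPM), intestine (3938 to 4177 CPM) and germline sums (1245 to 1306 CPM) lay within the tmC5 ranges. In rps-10(0)/+ intestine sums lay within the tmC20 range. There germline sums lay below it (1480 to 1514 against 1658.5 to 1765 CPM) and molting sums above it (1032 to 1312 against 132 to 940 CPM). All genes of these lists and of the yolk list were detected, and their part in the differences above was not tested.

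**Figure D3:**
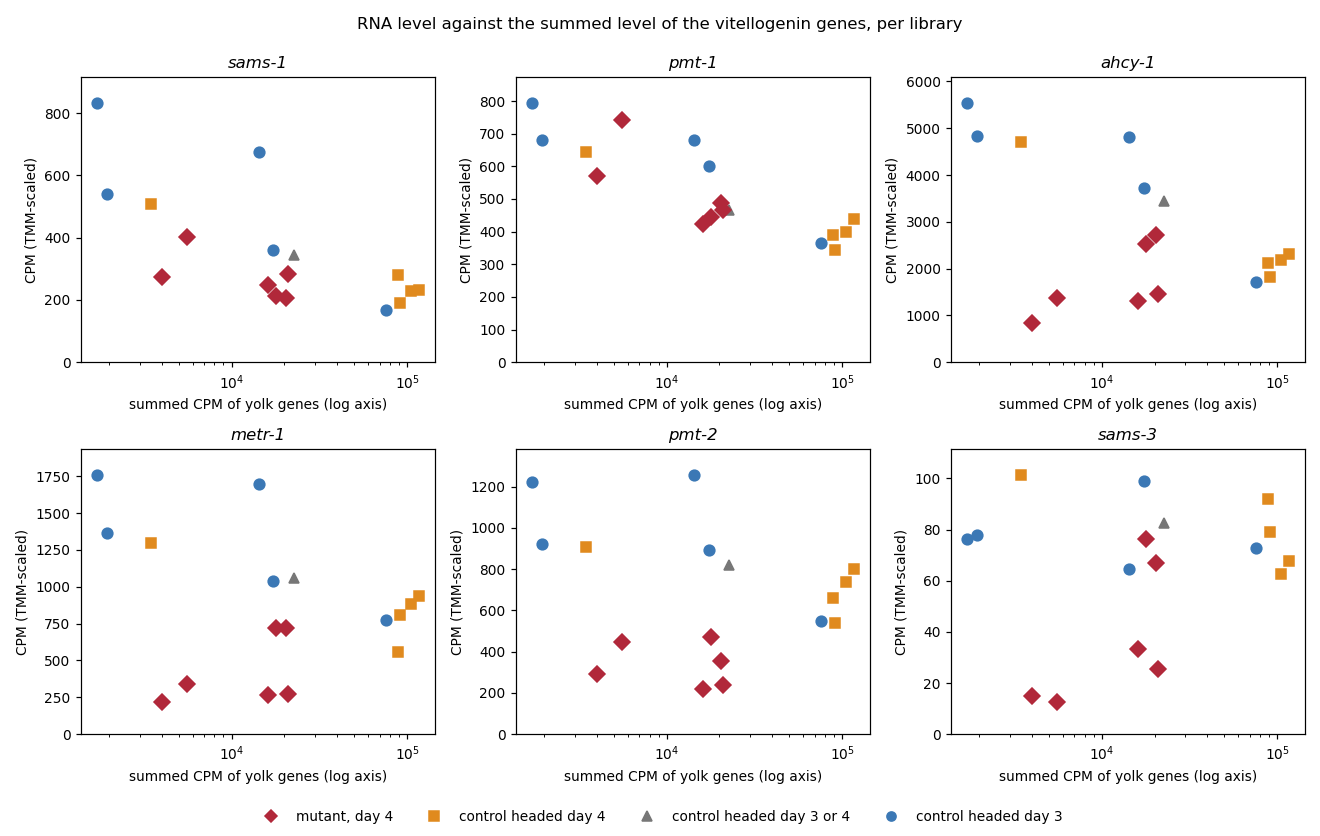
TMM-scaled CPM of sams-1, pmt-1, ahcy-1, metr-1, pmt-2 and sams-3 (linear axis) against the summed CPM of the yolk protein genes (log axis) in each of the 17 RNA libraries, with markers for mutants and for controls headed day 4, day 3 or both. The mutants lie at yolk sums of 4002 to 20843 CPM, and sams-3 in controls stays between 62.8 and 101 CPM across yolk sums of 1722 to 116602 CPM.

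A wider set of 56 genes in 6 lists around the cycle was then read, of which 52 were in the table and 51 were tested. The lists were folate one-carbon enzymes, upkeep of cobalamin and methionine synthase, SAM synthesis and its control, transsulfuration and cysteine, other SAM-dependent methyltransferases, and phosphatidylcholine synthesis. In the rpl-labelled pair 4 of 51 were called lower and 0 higher, in rps-23(0)/+ 1 lower and 0 higher, and in rps-10(0)/+ 0. Of all genes tested 2.54%, 0.625% and 0.129% were called, in the same order, and 0.679%, 0.248% and 0.0431% were called lower. Every called gene belonged to the cobalamin list of 8 genes, whose median log2 difference was −1.38 in the rpl-labelled pair, −1.25 in rps-23(0)/+ and −0.43 in rps-10(0)/+. The median of all genes was −0.02, −0.08 and −0.05, in the same order. Because the lists were chosen with earlier results of these data known, the place of the calls among them is a description.

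Nhr-114, a nuclear receptor that in worms activates methionine cycle genes when SAM is low, had 15.04 and 9.46 CPM in the rpl-labelled pair, against 58.1 and 56.9 CPM at day 4 and 101 and 92.0 CPM at day 3 (log2 −2.65, SE 0.48, adjusted p = 0.0111). In rps-23(0)/+ it had 12.1 and 10.6 CPM, against 39.2 to 102 CPM in tmC5 controls (−2.50, adjusted p = 0.0257). In rps-10(0)/+ it had 32.95 and 30.6 CPM, below tmC20 controls at 54.8 to 94.2 CPM (−1.26, adjusted p = 1.00). Both libraries were below every control in each mutant group, as for 12.8% of all genes in the pair, 8.69% in rps-23(0)/+ and 8.83% in rps-10(0)/+. With each mutant group fitted alone, nhr-114 did not pass edgeR in the pair (adjusted p = 0.0665) or in rps-23(0)/+ (0.155). It also did not pass with a replicate block (0.199 and 0.212, in the same order), or in rps-23(0)/+ against day 4 controls alone (0.110). Without the tmC5 columns of the other age's yolk level the difference of nhr-114 in rps-23(0)/+ was −2.46 (adjusted p = 0.0513). That call was also lost without either rps-23(0)/+ library (0.240 or 0.276) and without the second tmC5 column headed day 3 (0.0557), and the one in the pair without either of its libraries (0.0922 or 0.0709).

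Mtrr-1, the reductase that reactivates methionine synthase, had 37.1 and 66.2 CPM in the rpl-labelled pair, against 200.3 and 156 CPM at day 4 and 376 and 317 CPM at day 3 (log2 −2.34, adjusted p = 0.0213). In rps-23(0)/+ its difference was −1.62 (adjusted p = 0.173). Pmp-5, an ABC transporter of the cobalamin list, had 22.1 and 33.6 CPM in the pair, against 127 to 362 CPM in mIn1 controls (−3.17, adjusted p = 0.0211), and was at −2.87 in rps-23(0)/+ (adjusted p = 0.0671). Mmaa-1, which serves the mitochondrial cobalamin enzyme, had 34.1 and 32.6 CPM, against 89.8 to 134 CPM (−1.74, adjusted p = 0.0123), and was at −1.39 in rps-23(0)/+ (adjusted p = 0.0697). With the pair fitted alone, edgeR gave mtrr-1, pmp-5 and mmaa-1 an adjusted p of 0.130, 0.0665 and 0.0839. With a replicate block the values in the pair were 0.131, 0.199 and 0.338, in the same order. In the pair each of these 3 calls was lost without replicate 1 (adjusted p = 0.247 for mtrr-1, 0.243 for pmp-5 and 0.148 for mmaa-1), and those of pmp-5 and mmaa-1 without replicate 2 (0.0687 and 0.0628). In rps-23(0)/+ DESeq2 called all 3 lower (adjusted p = 0.0181, 0.000137 and 0.00199, in that order), and without the tmC5 columns of the other age's yolk level edgeR gave 0.347, 0.151 and 0.241.

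None of the other lists held a called gene. In the order rpl-labelled pair, rps-23(0)/+, rps-10(0)/+, the median log2 difference was −0.39, −0.52 and −0.18 for the 9 folate genes and −0.42, −0.46 and −0.22 for the 12 methyltransferases. It was 0.01, 0.19 and −0.01 for the 12 transsulfuration genes tested, and −0.07, −0.26 and −0.37 for the 8 phosphatidylcholine genes tested. Sams-5, a further SAM synthetase, was at −1.55 in the rpl-labelled pair (adjusted p = 0.109) and 0.59 in rps-23(0)/+ (adjusted p = 0.694). Mett-10 was at −0.32, −0.77 and −0.44, in the same order.

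Across the 17 libraries the genes whose log2 CPM followed each member most closely were read as a description, since libraries share genotype, stage and balancer. For sams-3 they were acdh-1 (r = 0.936), F32D8.12 (0.923), clu-1 (0.914), Y75B8A.13 (0.909) and F54D5.12 (0.902). For metr-1 they were mtrr-1 (0.973), ddo-2 (0.969) and F21C10.9 (0.965), and for mthf-1 alh-8 (0.933), mtrr-1 (0.911) and aco-1 (0.909). For pmt-2 they were C23H5.8 (0.939), elo-5 (0.929) and nhr-114 (0.918). Mtrr-1 also led the list of ahcy-1 (0.96), whereas asp-6 led that of sams-1 (0.953), glna-2 that of sams-4 (0.906), T21H3.1 that of pmt-1 and K07E3.1 that of cbs-1. Between members the highest values were those of mthf-1 with ahcy-1 (0.965), metr-1 with ahcy-1 (0.925) and metr-1 with pmt-2 (0.92). Sams-1 was closest to pmt-1 (0.883), and sams-3 and cbs-1 ran opposite (−0.74).

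In wild-type animals the comparison of day 4 with day 3 asked how the genes change as L4 larvae become adults. By the headings 0 of 9 genes were called, as for 0.0% of all 9045 genes tested, with 474 genes and 0 members at an unadjusted p under 0.05 and 40 genes and 0 members called by DESeq2. Without the tmC5 libraries, a comparison added after seeing the data, 6 of 9 fell with age, where 44.0% of all genes were called and 23.2% called lower. Sams-1 fell by 1.28 on the log2 scale (adjusted p = 0.00762), ahcy-1 by 1.08 (0.00149), mthf-1 by 0.94 (0.00589), metr-1 by 0.92 (0.00263), pmt-1 by 0.76 (0.00753) and pmt-2 by 0.61 (0.0152). Sams-3 was at −0.12 (adjusted p = 0.577), with 67.8 and 62.8 CPM in day 4 and 76.5 and 64.7 CPM in day 3 mIn1 controls. In the mIn1 libraries alone 7 of 9 were called lower (45.1% of all genes called), cbs-1 among them (−1.04, adjusted p = 0.0304).

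Between the balancers in wild-type animals 0 of 9 genes were called, as for 0.0% of all genes, with 0 members and 196 genes at an unadjusted p under 0.05 and 0 members and 4 genes called by DESeq2. The widest log2 gaps from mIn1 were those of cbs-1 in tmC5 (−0.77, SE 0.48) and metr-1 in tmC20 (−0.68, SE 0.36). Sams-3, with the smallest unadjusted p of the members in edgeR (0.107), was 0.53 (SE 0.22) higher in tmC20. Metr-1 (chromosome II:10926561-10931078), mthf-1 (II:7773904-7777823) and pmt-1 (II:5278090-5282523) lie on the same chromosome as rpl-5, rpl-33 and the mIn1 rearrangement. Ahcy-1 (I:6836469-6838140) lies on chromosome I with rps-10 and tmC20, and sams-3 and sams-4 lie on chromosome IV with rps-23 and tmC5. On other chromosomes are sams-1 (X:11965962-11969893), cbs-1 (X:10054275-10057528) and pmt-2 (V:4628580-4635263).

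Ribo-seq, which counts fragments of mRNA covered by ribosomes, was shallow at 1081 to 9637 counts per library, and only ahcy-1 passed the filter. Its footprints per 1000 counts were 1.38 and 0.726 in rpl-5(0)/+ and 0 and 0.578 in rpl-33(0)/+, against 3.81 and 3.501 in day 4 and 2.76 and 5.27 in day 3 mIn1 controls. All 4 rpl values lay below the 4 controls, but the share of all Ribo-seq genes that separate in this way was not counted. The count of 0 among 1681 allows a level of up to 1.78 per 1000, for counting error only. In rps-10(0)/+ the values were 4.51 and 3.41, against 2.41 to 4.23 in tmC20 controls, and in rps-23(0)/+ 4.36 and 2.36, against 2.15 to 4.92 in tmC5 controls.

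The log2 difference of ahcy-1 footprints was −0.995 in rpl-5(0)/+ (SE 0.79, adjusted p = 0.546) and −2.50 in rpl-33(0)/+ (SE 0.95, adjusted p = 0.0817), where 10.2% and 16.3% of the 49 genes tested were called. Leaving out 1 library gave −1.89 to −0.70 in rpl-5(0)/+, the highest without the second day 3 mIn1 control. In rpl-33(0)/+ it gave −6.65 to −2.22, the lowest without replicate 2 of rpl-33(0)/+, which leaves only the library at 0. Without replicate 2 of rpl-5(0)/+ the difference in rpl-33(0)/+ passed (−2.86, adjusted p = 0.0496). It was 0.24 in rps-10(0)/+ and −0.16 in rps-23(0)/+ (adjusted p = 0.971 and 0.953), with 0.0% and 4.08% of genes called. Over all 8 mutant and 12 control libraries it was −0.44 (adjusted p = 0.498), where 0.0% of 11 genes were called by edgeR, with 1 gene at an unadjusted p under 0.05 and 1 called by DESeq2, in neither case ahcy-1. Translational efficiency (TE), the ratio of footprints to RNA tested as an interaction over all mutants against all controls, differed by 0.52 on the log2 scale for ahcy-1 (SE 0.49, adjusted p = 0.962), and 0.0% of 149 genes were called. The mix of mutants differed between assays, with the rpl-labelled pair among 6 RNA libraries but rpl-5(0)/+ and rpl-33(0)/+ separately among 8 Ribo-seq libraries. The fit did not pair the assays by lysate. At an unadjusted p under 0.05 there were 12 TE genes, and DESeq2 called 1, again without ahcy-1.

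**Figure D4:**
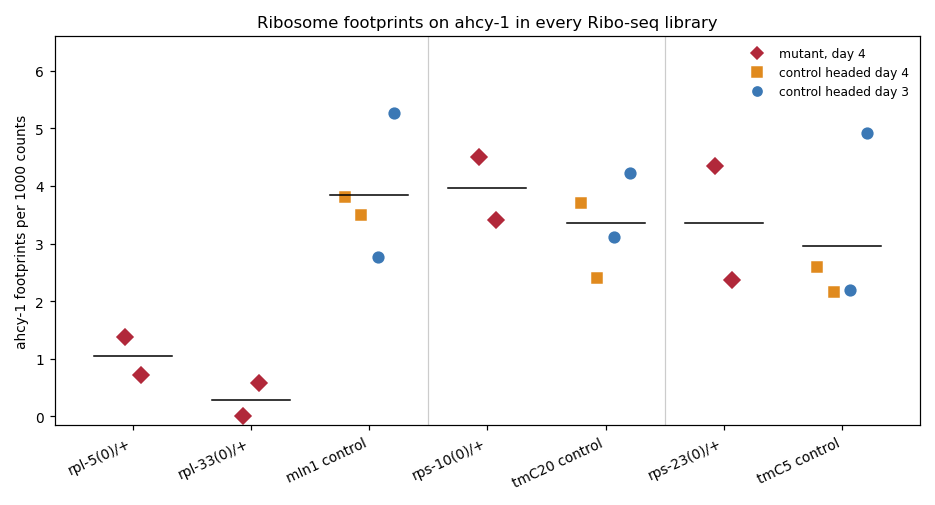
Ahcy-1 footprints per 1000 Ribo-seq counts (linear axis) in each of the 20 libraries, with mutants left of the controls of their balancer, markers for age and black lines for group means. The rpl-5(0)/+ and rpl-33(0)/+ libraries lie between 0 and 1.38 per 1000, and the mIn1 controls between 2.76 and 5.27.

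The other members were too thinly covered for a test. Summed over 8 mutant and 12 control libraries, metr-1 had 15 and 43 footprints, or 49.6 and 120.2 per 100000 counts, and pmt-2 had 7 and 29, or 23.2 and 81.1 per 100000. Sams-1 had 17 and 24 footprints, mthf-1 6 and 17, pmt-1 11 and 14 and sams-4 3 and 6. Sams-3 had 1 and 2 and was at 0 in 17 of 20 libraries, and cbs-1 had 1 and 2 and was at 0 in 18. No difference in TE of these genes was detectable at this depth.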

How the data were processed

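RNA-seq (SMARTer stranded kit) and Ribo-seq were made from split lysates of whole C. elegans. With the RiboFlow pipeline, reads were mapped by the authors to transcripts of WBcel235. The deposited values are raw gene counts, for Ribo-seq of fragments of 26 to 34 bases after reads with 1 molecular identifier were collapsed. Of 3 independent biological replicates the authors report removing the third for low depth. Every Ribo-seq group used here still holds a column headed replicate 3, as does 1 RNA column of the day 3 mIn1 controls. Whether these are the removed replicate is not known, since the headings and the labels number replicates differently. Another 6 Ribo-seq columns were not used here. Columns were matched to groups by heading, mc6 being read as mIn1, and 3 pairs of identical columns were each used once. Where 1 heading stood over 2 columns they were numbered in column order. This departs from the written plan, which took every column as a library.

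CPM of genes are TMM-scaled, whereas marker sums are per library total. After filterByExpr and TMM scaling, edgeR 4.0.16 (R 4.3.3) gave quasi-likelihood F tests, with all RNA libraries in 1 fit of 6 groups, as each mutant against both control ages of its balancer. P-values were adjusted by Benjamini-Hochberg over all genes of a fit, with a threshold of 0.05, and SE is the fold change over the root of F. Age had balancer as a covariate, and the comparison of balancers had age. For TE, the term tested was genotype by assay. Patterns most alike were read by Pearson's r of log2 CPM with a prior count of 2. Named genes were the 9 members, pathway genes called in any RNA comparison and the 3 genes most like each member (5 for sams-3), with sams-5 and mett-10 added after their values were seen.

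DESeq2 1.42.0, other scalings, filters and controls, a replicate block, sams-3 and sams-4 summed, and each library left out were tried. Leaving out the tmC5 columns of the other age's yolk level or all tmC5 libraries, and the numbered columns without a block, were added after seeing the data. The steps were tested on simulated data. The members and gene lists were chosen with earlier results of these data known. Sequences are from the RefSeq genome of WBcel235, read by the coordinates of its Ensembl annotation. With 2 RNA libraries per mutant group the precision is that of the spread pooled over the fit.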

Additional observations from a re-analysis of the deposited data

Results flagged for a closer look

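In 36 groups of 4 or 5 control values read for a sample far from the others, 3 such samples were found, where chance gives about 1 in 20. Sams-4 in the tmC20 control of day 3 was at 62.8 CPM, against 27.9 to 36.9 CPM in the other day 3 controls, which carried mIn1 or tmC5. Within tmC20, sams-4 was at 62.7 CPM in the control library with no age and 35.1 CPM in the control of day 4. In the first tmC5 control headed day 4, sams-1 was at 507 CPM, against 189.7 to 279 CPM in the others headed day 4, and ahcy-1 was at 4697 CPM, against 1815 to 2302 CPM. This is 1 of the columns with the yolk level of the other age.

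For 2 genes the libraries of 1 mutant group lay above, and those of another below, the mean log2 CPM of their own controls, and these differences were not tested. The log2 difference of cbs-1 was 1.78 in the rpl-labelled pair and −0.74 in rps-10(0)/+, a gap of 2.52, and −0.74 in rps-10(0)/+ and 1.30 in rps-23(0)/+, a gap of −2.04. In rps-10(0)/+ leaving out 1 library moved cbs-1 between −1.74 and −0.14. That of pmt-1 was 0.18 in the rpl-labelled pair and −0.20 in rps-23(0)/+, a gap of 0.38, although its libraries overlapped their controls in each group and the sign in the pair turned with library totals (−0.10).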

How the results depend on the processing

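In the rpl-labelled pair the 2 members called became 4 with DESeq2 and with day 3 controls alone, and 0 when it was fitted with its own controls alone, with a replicate block over the numbered columns, and in those columns without the block. In rps-23(0)/+ the 2 became 0 with at least 10 counts in every library, with day 4 controls alone, fitted alone, with the replicate block, in the numbered columns without it, and without the tmC5 columns of the other age's yolk level. Differences between replicates 1 and 2 were not correlated between mutants and day 3 controls (r = −0.000111 for rps-10(0)/+ with tmC20, 0.0257 for rps-23(0)/+ with tmC5). Whether equal numbers mark a shared batch cannot be decided from this. The 2 tmC5 controls headed day 3 differ in yolk level (75487 and 1967 CPM), and tmC20 replicate 2 has no sure age. For the rpl-labelled pair no such correlation could be read, since 1 mIn1 column has a usable number. By age the 0 became 1 by the stage in the labels (2 ambiguous tmC5 columns left out), 7 in mIn1 alone and 6 without tmC5. For ahcy-1 footprints in single mutants the 0 became 1 with library totals. Leaving out 1 library gave 0 to 2 members in the rpl-labelled pair and in rps-23(0)/+, and 0 to 1 for footprints. A replicate block for age and for balancer was not run, and the summed sams counts were not run for balancer.

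Genes called in the rpl-labelled pair were 236, against 568 with DESeq2, 971 with day 4 and 138 with day 3 controls, 17 fitted alone, 0 with and 2 without the block, and 30 to 304 without 1 library. In rps-10(0)/+ 12 were called, against 34 with DESeq2, 5 under the stricter filter, 3 with day 4 controls, 0 fitted alone, 4 with and 3 without the block, and 2 to 13 without 1 library. In rps-23(0)/+ 58 were called, against 157 with DESeq2, 143 with day 3 and 5 with day 4 controls, 6 fitted alone, 29 under the stricter filter, 2 with and 3 without the block, 12 without the tmC5 columns of the other age's yolk level, and 7 to 155 without 1 library. By age 0 became 1678 by stage in the labels.

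The log2 difference changed sign for sams-1 in the rpl-labelled pair with day 4 controls (0.55), and for pmt-1 there with library totals (−0.10), day 3 controls (−0.21), the block (−0.39) and the numbered columns without it (−0.28). It did so in rps-10(0)/+ with day 4 controls for mthf-1 (0.16), sams-4 (0.095) and pmt-1 (0.12). By age it did so under the stricter filter, stage labels, mIn1 alone and no tmC5 for cbs-1 (−0.084, −0.59, −1.04, −0.53) and sams-3 (−0.015, −0.060, −0.093, −0.12), and in mIn1 alone for sams-4 (0.036). Ahcy-1 footprints in rps-23(0)/+ were at 0.11 with DESeq2. Leaving out 1 library gave −1.24 to 0.27 for sams-4 and −0.056 to 0.35 for pmt-1 in the rpl-labelled pair, and in rps-10(0)/+ −0.30 to 0.17 for mthf-1, −0.26 to 0.11 for sams-4 and −0.20 to 0.12 for pmt-1. By age it gave −0.28 to 0.25 for cbs-1, −0.053 to 0.10 for sams-3 and −0.25 to 0.029 for sams-4, and for ahcy-1 footprints in rps-23(0)/+ −0.55 to 0.57. The cause was not tested.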
